A study of Mus musculus with 6 samples.

Results

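Resident macrophages of the dorsal root ganglion (DRG) were followed through 10 genes, namely 9 markers of tissue-resident and perivascular macrophages (*Mrc1*, *Cd163*, *Lyve1*, *Cx3cr1*, *Folr2*, *F13a1*, *Cbr2*, *Stab1*, and *Mertk*) and *Cx3cl1*, which encodes the ligand of CX3CR1. They were taken by symbol from a table of reads counted on 48440 rows, where each had a row of its own, and all 10 were among the 18593 genes that passed the filter on low counts. RNA sequencing compared whole DRGs of WT male mice that had been microinjected with virus on one side of the lumbar spine. In 3 libraries the virus was AAV5-*Gfp*, an adeno-associated virus carrying the gene of green fluorescent protein, and in the other 3 it was AAV5-*V1* together with AAV5-*V2* (AAV5-*V1+V2*), which carry the variants of the nerve injury-specific long noncoding RNA *NIS-lncRNA*. All 6 libraries therefore came from injected ganglia, each group had a virus preparation of its own, and the effects of the transcripts and of the preparation cannot be told apart. The deposited text names both a harvest at 5 weeks and a profile at 4 weeks after injection. Neither the promoter of the vectors nor the number of mice behind each library is given in the sources used here, so the p-values measure the spread between libraries, which may be technical.

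Peripheral ganglia hold macrophages that live among the neuronal cell bodies and along the vessels, where they take up debris and plasma proteins. Markers of such cells include receptors for mannose, haemoglobin, hyaluronan, and folate, and the receptor for fractalkine (CX3CL1), a chemokine that sits on the membrane of neurons and other cells and is cut off by proteases. MERTK is a receptor through which phagocytes engulf dying cells. Several of these genes are also expressed by other cells: *Lyve1* also marks lymphatic vessels, *Stab1* sinusoidal endothelium, *F13a1* platelets and monocytes, and *Cx3cl1* is made mainly by neurons, endothelium, and epithelium. In whole ganglia, fewer cells of a type and less RNA per cell cannot be told apart.

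Total counts were between 32025612 and 34764282 per library, and the ranges of the groups overlapped. The ganglia carried strong sensory neuron signal (summed CPM, counts relative to the scaled library size, of 10 neuron genes from 7589 to 8155 with AAV5-*Gfp* and from 4828 to 7079 with AAV5-*V1+V2*). AAV5-*V1+V2* replicate 1 stood apart from the other libraries of its group, with a chi-square per degree of freedom over genes of 32.2 and 48.9 against them, where the other pairs within a group had values from 8.27 to 13.9. Every pair thus differed by more than sampling noise. In what follows, values are given for replicates 1, 2, and 3 of a group in this order, and the groups are called *Gfp* controls and *V1+V2* DRGs. Results that rest on the library that stood apart are given with and without it.

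The promoters of *Mrc1* and *Stab1* are shown because these were the receptor genes that passed an adjusted p under 0.05 as higher. The receptor gene *Cx3cr1* had a larger fold (1.64) but just missed that threshold. Both are taken from the RefSeq table of GRCm38.p6, 5′ to 3′ on the strand of the gene, up to the first base that GENCODE M21 counts as exon. Capitals mark the core GAGGAA of the motif of PU.1, the ETS factor of myeloid cells, and TGCTGA, the half-site of the MAF recognition element, on either strand. The *Mrc1* stretch is chr2:14229164-14229391 (plus strand) and the *Stab1* stretch is chr14:31168642-31168891 (minus strand).
Mrc1: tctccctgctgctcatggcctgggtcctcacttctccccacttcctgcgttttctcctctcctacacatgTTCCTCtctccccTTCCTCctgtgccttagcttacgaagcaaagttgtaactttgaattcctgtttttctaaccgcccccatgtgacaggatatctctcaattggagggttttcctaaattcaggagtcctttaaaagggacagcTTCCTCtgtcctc
Stab1: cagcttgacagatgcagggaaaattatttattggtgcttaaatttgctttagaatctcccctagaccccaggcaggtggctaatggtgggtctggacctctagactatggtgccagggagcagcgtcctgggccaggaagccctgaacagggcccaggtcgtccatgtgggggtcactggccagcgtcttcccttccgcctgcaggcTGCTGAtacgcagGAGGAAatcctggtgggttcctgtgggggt
The first bases of the 3 core matches of *Mrc1* lie at -180, -167, and -35 from the RefSeq start, all on the opposite strand, and *Stab1* has the half-site at -43 and the core at -30. Over windows of 250 bases before to 50 bases after the start, 9 of the 10 genes had an entry, with 11 promoters in all. The core was in 6 of these 11 (5 of the 9 genes) and in 28.3% of all 32851 promoters of the table. The half-site was in 4 of the 11 (3 of the 9 genes) and in 19.5% of all. The longer form GAGGAAGT, which contains the core, was in 1 of the 11, a promoter of *F13a1*, and in 3.20% of all. *Cx3cl1* had cores at -93 and -66, and *Cx3cr1*, *Cd163*, and *Mertk* had a match of neither short motif. A match is only a run of letters in these windows.

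Relative to the *Gfp* controls, *Stab1*, *Cx3cl1*, and *Mrc1* were 1.33- to 1.63-fold higher in the *V1+V2* DRGs, and 0 of 10 members were called lower. These 3 of 10 members passed an adjusted p under 0.05 in the higher direction, beside 10.1% of all genes tested (1872 of 18593). In the lower direction 5.27% of all genes passed (980). In that test, edgeR's quasi-likelihood test, 4 members had an unadjusted p under 0.05, all of them higher, where 3577 of all genes were higher and 2878 lower at that threshold. In 4 members all *V1+V2* libraries were above all controls, as in 23.4% of all genes, and in the other 6 the groups overlapped. The median log2 fold change was 0.21 over the 10 members (0.34 without AAV5-*V1+V2* replicate 2) and -0.0003 over all genes. Summed over the members, the level was 223, 229, and 250 CPM in the *Gfp* controls and 344, 298, and 281 CPM in the *V1+V2* DRGs. Without AAV5-*Gfp* replicate 1, replicate 2, or replicate 3, 0 members passed in edgeR, although 4, 4, and 5 had an unadjusted p under 0.05. Few genes of the whole table were called higher in these fits (257, 12, and 15), so the 0 is no result about the members. In the absence of AAV5-*V1+V2* replicate 1, replicate 2, or replicate 3, 2, 1, and 4 members passed, beside 1862, 1020, and 2474 of all genes.

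**Figure D1:**
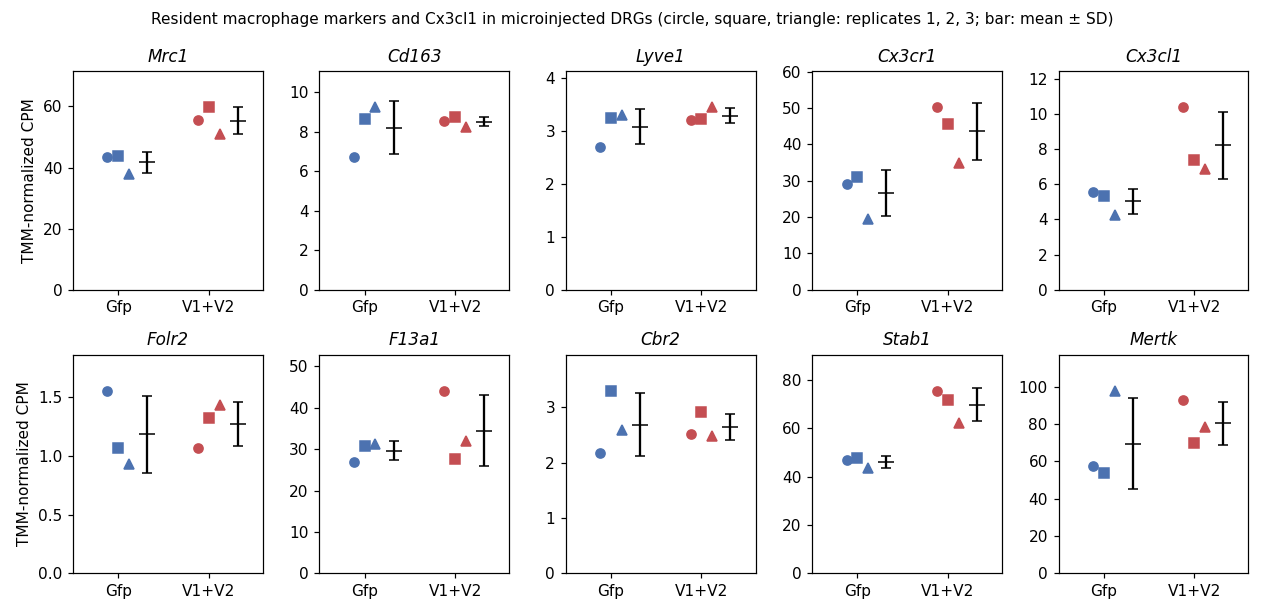
TMM-normalized CPM of the 10 genes in each library (y axes start at 0; blue, AAV5-Gfp; red, AAV5-V1+V2; symbols give the replicate, the bar gives mean ± SD, n = 3). For Mrc1, Cx3cr1, Cx3cl1, and Stab1 all V1+V2 libraries lie above all controls, and in the other 6 panels the groups overlap.

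*Mrc1* encodes the mannose receptor CD206, which binds sugars on microbes and on spent glycoproteins. The gene lies on the plus strand of chromosome 2 (GRCm38, 14229392 to 14332057), with 30 exons in its longest transcript. Its level was 43.4, 43.8, and 37.7 CPM in the *Gfp* controls and 55.4, 59.7, and 50.9 CPM in the *V1+V2* DRGs. The lowest AAV5-*V1+V2* library was above the highest AAV5-*Gfp* library. The mean was 41.6 ± 3.38 CPM (SD, n = 3) in the controls and rose to 55.4 ± 4.44 CPM (SD, n = 3), or by 0.41 on the log2 scale (standard error 0.09, adjusted p = 0.0286 in edgeR). The fold was 1.33, with a 95% interval from 1.15 to 1.54. Leaving out any AAV5-*Gfp* library, or AAV5-*V1+V2* replicate 2, ended this call (adjusted p from 0.0729 to 0.107 by the same test), and leaving out AAV5-*V1+V2* replicate 1 kept it (0.0317).

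*Stab1* encodes stabilin-1, a scavenger receptor for modified lipoproteins and matrix fragments. It lies on chromosome 14 from 31139013 to 31168641 on the minus strand, and its longest transcript has 69 exons. Its far end overlaps *Nt5dc2* of the opposite strand by a short stretch, and the use of strand in the counting is not given in the sources used here. *Stab1* was at 47.0, 47.9, and 43.4 CPM in the *Gfp* controls and at 75.5, 71.6, and 62.1 CPM in the *V1+V2* DRGs. The groups were wide apart beside the spread within each, and this was the smallest adjusted p among the 10 genes. The mean was 46.1 ± 2.37 CPM (SD, n = 3) in the controls and rose to 69.8 ± 6.86 CPM (SD, n = 3), which is 0.60 on the log2 scale (standard error 0.09, edgeR adjusted p = 0.0144) and a fold of 1.51 (95% interval, 1.31 to 1.74). The call held without each AAV5-*V1+V2* library in turn and was lost without AAV5-*Gfp* replicate 1 (edgeR adjusted p = 0.0513), replicate 2 (0.0815), or replicate 3 (0.0875).

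*Cd163*, the haptoglobin-haemoglobin receptor of resident macrophages (chromosome 6, 124304656 to 124330527, plus strand), showed no such difference. It was at 6.69, 8.66, and 9.23 CPM in the *Gfp* controls and at 8.54, 8.71, and 8.25 CPM in the *V1+V2* DRGs. All AAV5-*V1+V2* libraries lay inside the range of the controls. The log2 fold change was 0.05 (standard error 0.14, edgeR adjusted p = 0.808). The 95% interval of the fold, 0.829 to 1.30, ends below the fold of *Stab1*, although the difference between the genes was not tested.

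*Lyve1*, the hyaluronan receptor of perivascular macrophages and lymphatic endothelium (chromosome 7, 110850607 to 110863239, minus strand), was at 2.70, 3.23, and 3.30 CPM in the *Gfp* controls and at 3.19, 3.21, and 3.44 CPM in the *V1+V2* DRGs. The groups overlapped, and the fold of 1.07 had a 95% interval from 0.842 to 1.35 (edgeR adjusted p = 0.676). The 7 other genes of lymphatic endothelium had a median log2 fold change of 0.14, and 0 of them passed in either direction in edgeR (0 higher and 0 lower at an unadjusted p under 0.05). Their summed level was from 304 to 342 CPM with AAV5-*Gfp* and from 293 to 300.3 CPM with AAV5-*V1+V2*, most of it *Reln*, which neurons and glia can also express.

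*Folr2*, folate receptor beta (chromosome 7, 101839988 to 101857194, minus strand), had the fewest reads of the 10 genes, with 50, 37, and 29 counts in the *Gfp* controls and 35, 44, and 49 counts in the *V1+V2* DRGs. This was 1.18 ± 0.325 CPM (SD, n = 3) against 1.27 ± 0.188 CPM (SD, n = 3), with overlapping groups. The 95% interval of the fold, from 0.714 to 1.62, includes both no change and a rise as large as that of *Stab1*. Part of the gene is overlapped by the antisense RNA *Gm10602*, which had 148 counts of its own over the 6 libraries, and its reads could be split from those of *Folr2* only with strand.

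The fractalkine pair had the largest fold changes of the 10 genes. *Cx3cr1*, a Gi-coupled receptor of monocytes and resident macrophages (chromosome 9, 119901616 to 120069879, minus strand), was at 29.2, 31.1, and 19.3 CPM in the *Gfp* controls and at 50.2, 45.7, and 34.8 CPM in the *V1+V2* DRGs. Replicate 3 was the lowest library of each group, and the groups did not overlap. The log2 fold change was 0.71 (standard error 0.20) and the fold 1.64 (95% interval, 1.18 to 2.27), but with an adjusted p of 0.0525 in edgeR's test *Cx3cr1* just missed the threshold. It passed in 5 of 15 alternative analyses, among them DESeq2 (adjusted p = 0.00491) and scaling by total counts alone (0.0488 by edgeR's test). Without AAV5-*V1+V2* replicate 1 the log2 fold change was 0.60, with an adjusted p of 0.0997 in edgeR. The annotated span of *Cx3cr1* contains or meets other genes of either strand, among them *Wdr48*, *Gorasp1*, and *Csrnp1*, so that its counts depend on how overlapping reads were assigned.

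*Cx3cl1* (chromosome 8, 94772009 to 94782427, plus strand) was at 5.55, 5.34, and 4.23 CPM in the *Gfp* controls and at 10.4, 7.39, and 6.88 CPM in the *V1+V2* DRGs. AAV5-*V1+V2* replicate 1 was the highest, and the groups did not overlap. From a control mean of 5.04 ± 0.708 CPM (SD, n = 3) it rose to 8.22 ± 1.90 CPM (SD, n = 3), at a fold of 1.63 (95% interval, 1.19 to 2.23), with a standard error of 0.19 on the log2 scale, and an adjusted p of 0.0490 by edgeR's test. This call was the least firm of the 3. It was lost in limma-voom (adjusted p = 0.0597), with upper quartile normalization (0.0513 by edgeR's test), and in 5 of 6 fits with one library removed, among them the fit without AAV5-*V1+V2* replicate 1 (0.0668). The ligand and the receptor were thus close in fold while standing on either side of the threshold, and a difference between them was not tested. Neurons are a possible source of the ligand. Of 10 neuron genes 0 were called higher and 1 lower (*Rbfox3*, log2 fold change -0.93), with a median of -0.41. Leaving out AAV5-*V1+V2* replicate 1 gave 5 lower (median -0.23), and leaving out replicate 3 gave 4 (-0.51). With AAV5-*V1+V2* replicate 2 or any AAV5-*Gfp* library removed, 0 were called lower (medians from -0.48 to -0.39). In each of these, 3 to 5 were lower at an unadjusted p under 0.05 in edgeR. Removing any library left 0 called higher. The part of neurons in the level of *Cx3cl1* was not tested.

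*Mertk* (chromosome 2, 128698956 to 128802894, plus strand) varied more between control libraries than between groups. It was at 57.4, 53.8, and 97.8 CPM in the *Gfp* controls and at 92.8, 70.1, and 78.7 CPM in the *V1+V2* DRGs. AAV5-*Gfp* replicate 3 was the highest of all 6 libraries, while the other controls were the lowest. The log2 fold change was 0.21 (standard error 0.23, edgeR adjusted p = 0.544), and 0.53 without AAV5-*Gfp* replicate 3 (adjusted p = 0.0972 by the same test). The same library was the highest control for *Cd163*, *Lyve1*, and *F13a1*, and the lowest control for *Mrc1*, *Stab1*, *Cx3cr1*, *Cx3cl1*, *Folr2*, and the general macrophage genes described below.

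*F13a1* encodes the A subunit of coagulation factor XIII, a transglutaminase (chromosome 13, 36867178 to 37050244, minus strand). It was at 27.0, 30.7, and 31.2 CPM in the *Gfp* controls and at 44.1, 27.6, and 31.9 CPM in the *V1+V2* DRGs. AAV5-*V1+V2* replicate 1 was the highest, replicate 3 was just above the highest control, and replicate 2 lay among the controls. Without replicate 1 the log2 fold change went from 0.22 to 0.01 (edgeR adjusted p = 0.385 and 0.958). Of 7 platelet genes 0 passed in either direction in edgeR (median log2 fold change 0.47 with 2 higher at an unadjusted p under 0.05, and 0.09 with 0 higher without AAV5-*V1+V2* replicate 1), with summed levels from 49.3 to 60.2 CPM and from 50.5 to 61.8 CPM. Of these, *Itgb3* and *Itga2b* had the highest means.

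*Cbr2*, a carbonyl reductase (chromosome 11, 120729489 to 120732114, minus strand), was at 2.17, 3.29, and 2.60 CPM in the *Gfp* controls and at 2.52, 2.91, and 2.48 CPM in the *V1+V2* DRGs. All AAV5-*V1+V2* values fell within the range of the controls. It was the only member with a log2 fold change below 0 (-0.03, standard error 0.19, edgeR adjusted p = 0.934), and this sign turned in 4 of 15 alternative analyses.

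**Figure D2:**
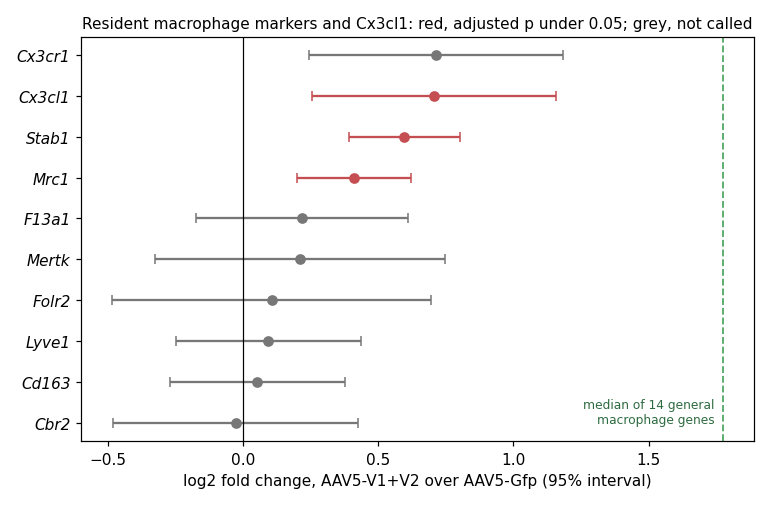
Log2 fold change of each gene with its 95% interval (x axis; AAV5-V1+V2 over AAV5-Gfp, 3 libraries each; red, adjusted p under 0.05). Stab1, Cx3cl1, and Mrc1 are called, Cx3cr1 has an interval above 0 without being called, and all 10 intervals end below the dashed line at 1.77, the median of 14 general macrophage genes. Most genes tested also had a log2 fold change below this line.

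To set the genes beside each other, CPM was divided by the length of the exons in kilobases. On this scale the level with AAV5-*Gfp* was highest for *Mertk* (16.1 ± 5.63, SD, n = 3), followed by *Mrc1* (6.54 ± 0.530), *Cx3cr1* (5.89 ± 1.40), *Stab1* (4.48 ± 0.231), and *F13a1* (4.40 ± 0.342). A lower group was made of *Cbr2* (2.02 ± 0.426), *Cd163* (1.50 ± 0.244), *Cx3cl1* (1.28 ± 0.180), *Lyve1* (1.05 ± 0.113), and *Folr2* (0.765 ± 0.210). In this order the libraries of neighbours overlapped everywhere except between *Mertk* and *Mrc1* and between *F13a1* and *Cbr2*. With AAV5-*V1+V2*, *Cx3cr1* (9.67 ± 1.75 CPM per kilobase, SD, n = 3) stood before *Mrc1* (8.69 ± 0.697), and *Cx3cl1* (2.09 ± 0.483) stood before *Cbr2* (1.99 ± 0.181). Neighbours then overlapped for *Cx3cr1* and *Mrc1*, for *Stab1* and *F13a1*, and for *Cx3cl1* and *Cbr2*, and the other neighbours did not. With the longest transcript as the length, *F13a1* moved from place 5 to place 3 in the controls, so the order within the upper group depends on the transcripts assumed.

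The fold changes of all 10 members were below the median of macrophage genes in general. The highest member, *Cx3cr1*, ranked 1801 by log2 fold change among the 18593 genes tested, so most genes were below that median too. All 14 genes of a list of macrophages of any origin were called higher, with a median log2 fold change of 1.77 and summed levels of 151 to 220 CPM with AAV5-*Gfp* and 520.1 to 1531 CPM with AAV5-*V1+V2*. *Itgam*, a further gene of this list, is split over suffixed rows of the table and was left out. By the smallest adjusted p the leading genes were *C1qa* and *C1qb*, subunits of complement C1q (log2 fold changes 1.93 and 1.70), and *Laptm5*, a lysosomal protein of blood cells (2.22). Without AAV5-*V1+V2* replicate 1 all 14 were still called, with a median of 1.47, whereas 4, 0, and 0 were called without AAV5-*Gfp* replicate 1, 2, or 3 (medians 1.86, 1.80, and 1.66), where all 14 had an unadjusted p under 0.05 in edgeR.

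The mean log2 CPM of these 14 genes was 3.07, 2.90, and 2.59 in the *Gfp* controls and 5.24, 4.54, and 4.06 in the *V1+V2* DRGs. Each member was expressed relative to this mean within its library, by subtraction on the log2 scale. For all 10 members the relative level of each *V1+V2* library was below that of each control. A gene with a constant CPM would separate in the same way, because the mean of the 14 genes itself did not overlap between the groups. The share of all genes that separate so was not computed, and the count is no result particular to the members. For *Mrc1* it was 2.37, 2.55, and 2.65 in the *Gfp* controls and 0.55, 1.36, and 1.61 in the *V1+V2* DRGs. For *Cd163* it was -0.33, 0.21, and 0.62 in the controls and -2.14, -1.42, and -1.01 with AAV5-*V1+V2*, in the same order. AAV5-*V1+V2* replicate 1, where the macrophage genes were highest, had the lowest relative level of both.

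The difference of group means on this log2 scale was smallest for *Cx3cr1* (-1.03), *Cx3cl1* (-1.07), *Stab1* (-1.17), and *Mrc1* (-1.35). It was -1.50 for *Mertk*, -1.57 for *F13a1*, -1.63 for *Folr2*, -1.66 for *Lyve1*, -1.69 for *Cd163*, and -1.77 for *Cbr2*. In an exact two-sided permutation test each of the 10 had p = 0.1, the smallest that 3 libraries against 3 allow. These differences share the reference list, whose own rise of 1.76 they contain, and so they are not 10 separate results. A gene with a constant CPM would reach the same p, so the test cannot show anything particular to the members. With *Csf1r*, the receptor gene of all macrophages, as the only reference, the differences of *Cx3cr1* and *Cx3cl1* were -0.72 and -0.75.

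**Figure D3:**
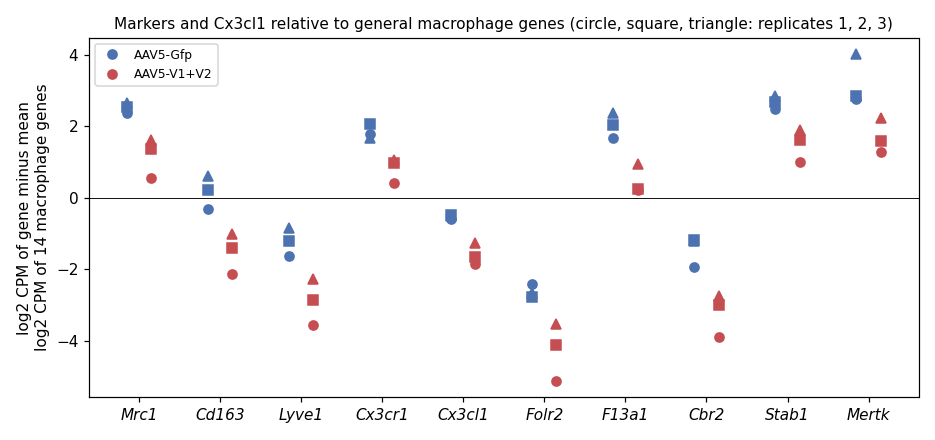
Level of each gene relative to 14 general macrophage genes of the same library (y axis, log2 units; blue, AAV5-Gfp; red, AAV5-V1+V2; symbols give the replicate). In all 10 columns the 3 red points lie below the 3 blue points, by 1.03 for Cx3cr1 and by 1.77 for Cbr2 on average. A gene with a constant CPM would show the same order, because the 14 reference genes rose.

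Of 18 other genes of resident and perivascular macrophages, 7 were higher and 0 lower, with a median log2 fold change of 0.70, and summed levels of 200 to 239 CPM with AAV5-*Gfp* and 258 to 278 CPM with AAV5-*V1+V2*. The leading genes were *Wfdc17* (2.89), *Clec4n* (3.29), which encodes the lectin dectin-2, and *Cd209d* (2.26), a lectin of the DC-SIGN family. Without AAV5-*V1+V2* replicate 1, 6 were called (median 0.50), and without replicate 2, 4 were. Both *Wfdc17* and *Cd209d* were low in the controls, at 20, 18, and 12 counts for *Wfdc17* and 8, 8, and 3 counts for *Cd209d*. The most abundant uncalled genes were *Gas6*, a ligand of MERTK (log2 fold change 0.10, edgeR adjusted p = 0.575), and the transcription factor gene *Maf* (0.02, 0.902). Other cell types also express both. Most of the summed level was *Gas6* (mean 115 CPM in the controls and 122 CPM in the *V1+V2* DRGs) and *Maf* (64.8 and 65.7 CPM). In this and the lists that follow, 0 genes were called higher or lower without AAV5-*Gfp* replicate 2 or without replicate 3, fits in which 12 and 15 of all genes were called higher and 0 lower by edgeR. Of the 18 genes 10 still had an unadjusted p under 0.05 and were higher in each of these fits. Without AAV5-*Gfp* replicate 1, 0 of the 18 were called, again with 10 higher at an unadjusted p under 0.05.

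Among 14 tested scavenger and lectin receptor and haem-handling genes, the functional relatives of *Mrc1*, *Stab1*, and *Cd163*, 8 were higher and 0 lower (median log2 fold change 1.00), and 2 were higher without AAV5-*V1+V2* replicate 2. Without AAV5-*Gfp* replicate 1, 0 were called, with 10 higher at an unadjusted p under 0.05 in edgeR. *Marco*, a scavenger receptor of inflamed and marginal-zone macrophages, was nearly absent from the controls with 2, 1, and 4 counts and had 345, 88, and 76 counts in the *V1+V2* DRGs. *Cd209a* (1.26) and *Cd5l* (1.76) followed by adjusted p, *Cd5l* with at most 24 counts in any library. The closest paralog of the mannose receptor in this list, *Mrc2*, which fibroblasts express, was uncalled at 0.27, as was *Lrp1* at 0.18.

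Around *Cx3cl1* and *Cx3cr1*, 6 genes were listed for the cutting of the ligand, its signal, and its integrin partners, and 3 were higher and 0 lower (median 0.32), or 1 without AAV5-*V1+V2* replicate 2 and 0 without AAV5-*Gfp* replicate 1 (3 at an unadjusted p under 0.05 in edgeR). *Ctss*, the lysosomal protease cathepsin S of myeloid cells, which can release CX3CL1, had 700, 595, and 370 counts in the *Gfp* controls and 8806, 3953, and 2391 counts in the *V1+V2* DRGs. Its log2 fold change was 3.17 (standard error 0.50, edgeR adjusted p = 0.0153). The sheddase gene *Adam17* (0.61) and the G protein gene *Gnai2* (0.47) rose by less, and the sheddase gene *Adam10* (-0.04) and the integrin gene *Itgav* (0.16) did not pass.

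Around *Mertk*, 12 genes of the same receptor family, its bridging ligands, and engulfment were tested, and 4 were higher and 1 lower (median 0.27), or 2 and 0 without AAV5-*V1+V2* replicate 2, 4 and 0 without replicate 1, and 1 and 0 without AAV5-*Gfp* replicate 1. *Mfge8*, a bridge to phosphatidylserine, rose with a log2 fold change of 1.66 (standard error 0.21, edgeR adjusted p = 0.0140), as did *Rac2*, a GTPase of blood cells (2.24), and *Timd4*, a phosphatidylserine receptor (1.81), which is also among the resident macrophage genes. *Axl*, the sister receptor of MERTK, was the other gene that rose (0.58). *Megf10*, an engulfment receptor of glia, fell by 0.46 on the log2 scale, and *Lrp1* and *Elmo1* did not pass (0.18 and 0.25).

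**Figure D4:**
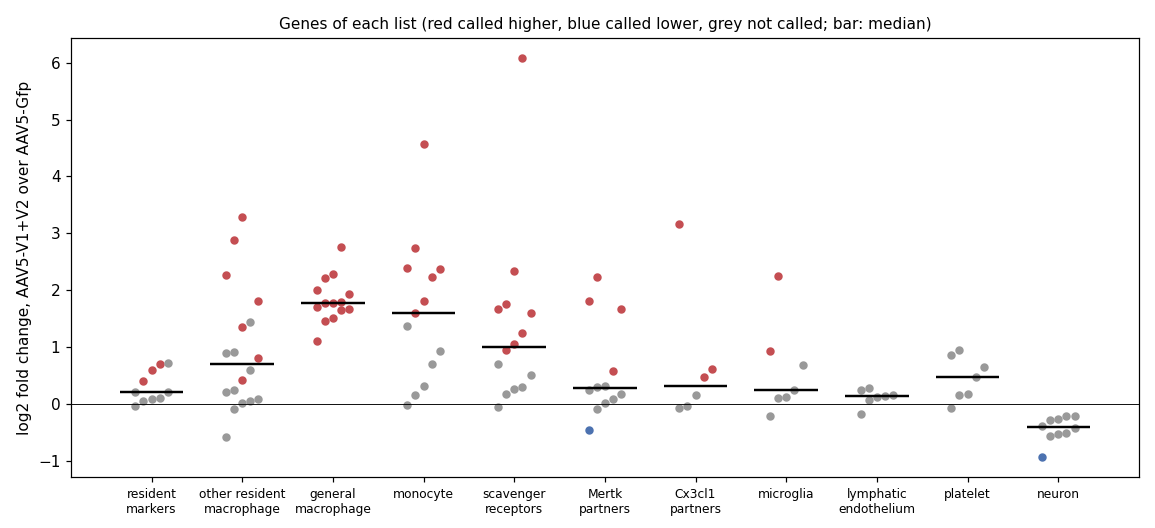
Log2 fold change (y axis) of each gene of 11 lists (x axis; red, called higher; blue, called lower; grey, not called; bar, median). The median is 0.21 for the resident markers with Cx3cl1, 0.70 for other resident macrophage genes, 1.77 for general macrophage genes, 1.59 for monocyte genes, and -0.41 for neuron genes.

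Markers of other cells that could carry these genes were compared in the same fit. Of 13 monocyte genes, 7 were higher and 0 lower (median log2 fold change 1.59, summed levels 91.7 to 96.4 CPM with AAV5-*Gfp* and 145 to 278 CPM with AAV5-*V1+V2*), among them *Spn* (2.39) and *Ly6c2* (2.37). Without AAV5-*V1+V2* replicate 1, 8 were higher and the median was 0.97, and without AAV5-*Gfp* replicate 1, 1 was higher. The uncalled *Vcan* and *Nr4a1* had 0.16 and 0.31. Of 7 dendritic cell genes 5 were higher, of 9 lymphocyte genes 8, and of 9 neutrophil genes 1 (7 at an unadjusted p under 0.05), with medians of 1.26, 3.38, and 0.84. Without AAV5-*V1+V2* replicate 1 these numbers were 4, 8, and 4, with medians of 1.10, 2.95, and 0.46, and without AAV5-*Gfp* replicate 1 they were 2, 9, and 0. Of 7 mast cell genes 0 were called (median -0.16, and 0 at an unadjusted p under 0.05 in edgeR). Monocytes and dendritic cells can express *Mrc1*, *F13a1*, and *Cx3cr1*, and the part of these cells in the members' levels was not tested.

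Microglia, the macrophages of the spinal cord, share *Cx3cr1* and *Mertk* with the cells described here, and of 7 microglial genes tested 2 were higher and 0 lower (median 0.24), or 1 without AAV5-*V1+V2* replicate 2. *Siglech*, which plasmacytoid dendritic cells also express, had a log2 fold change of 2.26, and *Tmem119* of 0.94, with 2.96 ± 0.662 CPM (SD, n = 3) in the controls and 5.68 ± 0.376 CPM (SD, n = 3) in the *V1+V2* DRGs. *Olfml3* (0.24) did not pass. Among 8 genes of blood endothelium *Pecam1* rose (0.88), *Flt1* fell by 0.42 on the log2 scale, and the median was -0.02. At an unadjusted p under 0.05 in edgeR, 1 of them was higher and 3 were lower. Without AAV5-*V1+V2* replicate 2, 1 was called higher and 0 lower, and without AAV5-*Gfp* replicate 1, 0 were called. Of 6 erythrocyte genes 0 passed in edgeR (median 0.18 with 2 higher at an unadjusted p under 0.05, and -0.03 with 1 higher without AAV5-*V1+V2* replicate 1), of 7 Schwann cell genes 0 (median 0.01, 0 at an unadjusted p), and of 7 satellite glial genes 1 rose, *Slc1a3* (median -0.08). At an unadjusted p under 0.05 in edgeR, 1 satellite glial gene was higher and 1 lower. Without AAV5-*V1+V2* replicate 3, 0 of this list were called higher and 1 lower. Without AAV5-*V1+V2* replicate 2 or AAV5-*Gfp* replicate 1, 0 were called. Of 7 fibroblast genes 2 rose, *Dpt* and *Col1a2* (median 0.43), or 1 without AAV5-*V1+V2* replicate 2 and 0 without AAV5-*Gfp* replicate 1.

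Outside the members, the genes whose profile over the 6 libraries was most like the mean profile of the 9 macrophage markers were sought among 14493 genes (those averaging 1 log2 CPM or more), by the root mean square difference of centred log2 CPM. They were *Srsf3*, *Tradd*, *Baiap2*, *Polh*, and *Rpl36*, with differences from 0.0115 to 0.0290 log2 units and log2 fold changes from 0.25 to 0.30. None is a macrophage marker of the lists used here. The mean profile averages markers with log2 fold changes from -0.03 (*Cbr2*) to 0.71 (*Cx3cr1*), and few of the 14493 genes were named. The absence of markers among them is therefore no result about macrophage genes.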

How the data were processed

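RNA sequencing was done on microinjected DRGs, with 3 libraries of AAV5-*Gfp* and 3 of AAV5-*V1+V2*, each a replicate by its label. For each gene symbol the authors deposited a raw read count, not normalized. The submitters' processing notes name GRCm38 (mm10) as the genome, while the aligner, the annotation, the use of strand, and the handling of reads shared between genes are not given in the sources used here. Libraries were stranded total RNA.

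The table was tested with edgeR 4.0.16 in R 4.3.3 (filterByExpr, TMM normalization, glmQLFit, and glmQLFTest without a covariate). Benjamini-Hochberg adjustment covered all 18593 genes tested, and genes with an adjusted p under 0.05 were called. CPM is the count relative to the TMM-scaled library size. Standard errors are the absolute coefficient over the square root of F, and 95% intervals use the t distribution with the degrees of freedom of the fit. Relative levels used log2 CPM with a prior count of 0.5. Coordinates and exon lengths came from GENCODE M21, and promoters from RefSeq. Counts were also simulated with 18593 genes, of which 67 were changed 1.5-fold, 67 were changed 2-fold, and 66 were changed 4-fold. The edgeR test recovered 31.3%, 65.7%, and 92.4% of these, in this order, and 10% of its calls were false. Far more genes were called in the data (1872 higher and 980 lower). These shares therefore need not hold for the real comparison.

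The members and the lists of marker genes were chosen with earlier results of these data known, and some genes are on more than 1 list. Named from each list were the called genes with the 3 smallest adjusted p-values and the 2 uncalled genes of highest mean CPM, and for genes of like pattern the 5 closest, although some genes that the rule names are not reported here. Of the lists of lymphocytes, dendritic cells, neutrophils, mast cells, erythrocytes, and Schwann cells only counts and medians are given, and *Axl* was named after its value was seen. Alternatives covered the normalization, the filter, DESeq2 1.42.0, limma-voom (limma 3.58.1), a replicate block, a 2-fold criterion, the reference for relative levels, the transcript length, and leaving out each library. Summing the rows of *Itgam* and leaving libraries out of the list counts were added after the data were seen.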

Additional observations from a re-analysis of the deposited data

How the results depend on the processing

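The number of members called higher was 3, and was between 2 and 4 in 8 of the 9 alternatives that kept all libraries (4 with DESeq2, without the filter, and with total counts, 2 with limma-voom and with upper quartile normalization). Adding a 2-fold criterion left 0, because the largest fold of a member was 1.64 (*Cx3cr1*). Leaving out each library gave 0 to 4 members, 12 to 2474 genes called higher, and 0 to 1446 called lower, against 1872 and 980 with all libraries. The 0 members were found without AAV5-*Gfp* replicate 1, 2, or 3, where 4, 4, and 5 were higher at an unadjusted p under 0.05 in edgeR. The 0 genes called lower were found without AAV5-*Gfp* replicate 2 and without replicate 3, where edgeR had 2029 and 1815 lower genes at an unadjusted p under 0.05. These fits had unequal groups, and the cause of the low numbers was not tested. With the 2-fold criterion 1052 genes were higher and 47 lower, and with DESeq2 1606 were lower, a change whose cause was not tested. No member was called lower in any alternative. Of 15 alternatives, *Stab1* was called in 11, *Mrc1* in 10, *Cx3cl1* in 7, *Cx3cr1* in 5, and the other 6 genes in 0.

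With a replicate block 4 members were called, with *Cx3cr1* added (edgeR adjusted p = 0.00395), and 2118 genes were higher and 1341 lower. The labels give no origin of the numbers, and deviations of libraries with the same number correlated over genes at 0.04, 0.06, and 0.10, so the numbers were not treated as pairs, although each library correlated best with its own number.

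Signs turned only in uncalled genes near 0. *Cbr2*, at -0.03 with all libraries, went to 0.031 with total counts and ranged from -0.16 to 0.15 when each library was left out, with its sign turned without AAV5-*Gfp* replicate 2 and without AAV5-*V1+V2* replicate 1 or 3. Over the same fits *Cd163* ranged from -0.073 to 0.15 and *Folr2* from -0.039 to 0.35, with the sign turned without AAV5-*Gfp* replicate 1 and replicate 3. The relative level of all 10 members stayed below that of the controls on average in every alternative tried, *Itgam* included. Each reference tried had itself risen, so a gene with a constant CPM would also stay below.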
